A study of Mus musculus with 6 samples.

Results

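Genes used to tell follicular from marginal zone B cells were examined in CpG-stimulated and unstimulated B cells. The 10 genes, Cr2, Fcer2a, Cd1d1, Cd9, Fcrl1, Fcrl5, Fcrla, Cd38, Cd5 and Notch2, were chosen by name from the 23420 genes with deposited values. B cells were purified with beads from spleens of wild-type BALB/c mice, 3 animals aged 7 to 11 weeks. In each culture 10 M cells, at 10 M per ml, were kept for 4 hours with 10 µg/ml of CpG ODN 1826, an oligonucleotide that activates TLR9, or without it. There were 3 CpG and 3 unstimulated samples, with replicates 1 and 2 labelled female and replicate 3 male in each group. Whether each replicate number stands for a separate mouse is not stated, so that p values measure only the spread between these samples.

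Follicular B cells recirculate through the follicles of spleen and lymph nodes and carry much CD23, the low-affinity IgE receptor encoded by Fcer2a. Marginal zone B cells stay at the border of the splenic white pulp, where blood-borne antigen arrives, and carry much CD21, CD1d and CD9. Their development depends on Notch2, which is activated by Delta-like ligands of stromal cells in the spleen. All cells of a sample were sequenced together, so that fewer cells of a subset and less RNA per cell cannot be told apart.

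Values are on the log2 CPM scale (read counts scaled to a common library size), in which 10 reads correspond to -0.76. All 10 genes lay above that level in all 6 samples. The difference between groups is given as log2FC, CpG minus unstimulated, with its standard error (SE) and a false discovery rate (FDR) from limma adjusted over the 11233 genes tested. Of the 10 genes, 3 were higher with CpG at an FDR under 0.05 (Fcer2a, Fcrl1 and Fcrl5), 4 were lower (Cd1d1, Fcrla, Cd38 and Notch2) and 3 were not called (Cr2, Cd9 and Cd5). Of all tested genes, 37.6% were higher and 36.7% lower by that rule, so the share of subset genes that changed was near that of all genes. With a log2FC beyond 1 or -1 as well, 2 of the 10 were higher and 2 lower, against 15.8% and 15.3% of tested genes. Stimulated and unstimulated samples were fully separated in 8 of the 10 genes, as in 77.7% of those tested. The median log2FC was -0.20 over the 10 genes and 0.00 (0.003) over all tested genes, and the median size without regard to sign was 0.86 and 0.64. With 3 samples against 3 an exact permutation test cannot give a p under 0.10, and none was run.

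**Figure D1:**
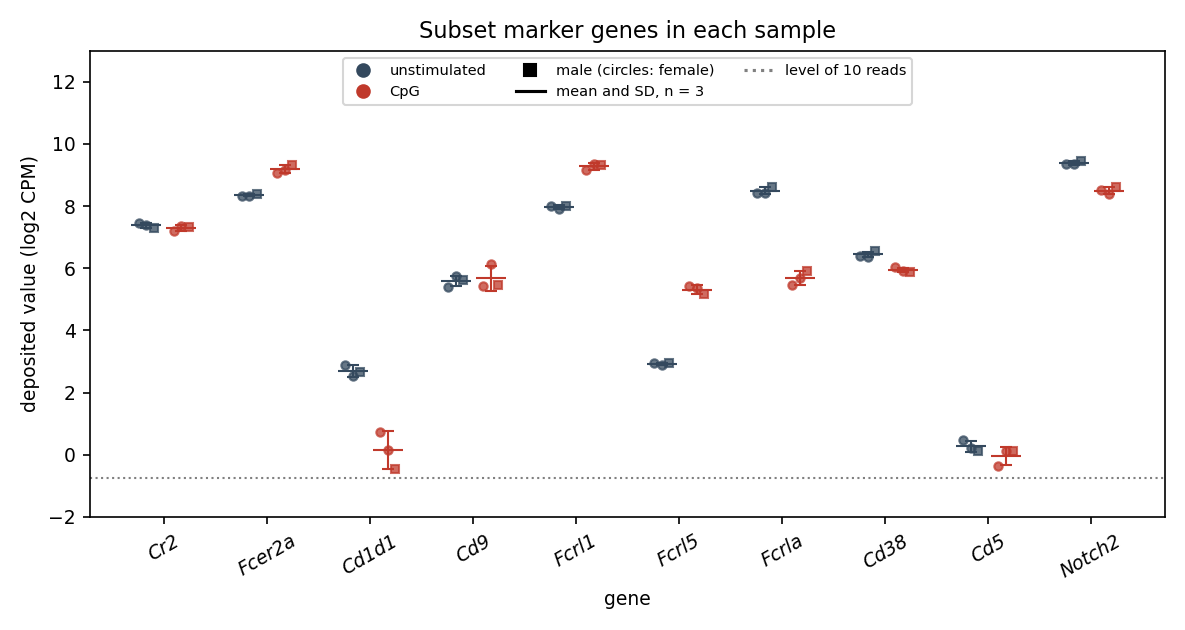
Deposited log2 CPM (vertical axis) of the 10 subset marker genes (horizontal axis) in 3 unstimulated and 3 CpG samples, with circles for female and squares for male samples, bars for the mean and SD, and a dotted line at the level of 10 reads. Fcer2a, Fcrl1 and Fcrl5 lay higher with CpG, Cd1d1, Fcrla, Cd38 and Notch2 lay lower, and the groups of Cr2 and Cd9 overlapped.

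The pair of genes most used to separate the subsets did not move alike. Fcer2a encodes CD23. It had 9.07, 9.17 and 9.33 log2 CPM in CpG replicates 1 to 3 and 8.34, 8.32 and 8.41 in unstimulated replicates 1 to 3. The stimulated samples all lay above the unstimulated ones. The log2FC was 0.83 (SE 0.073, FDR = 3.15e-06 from limma), or 1.78-fold. Cr2 encodes CD21 and, through another splice form, CD35, which bind complement fragments on antigen. Its values were 7.19, 7.35 and 7.34 log2 CPM with CpG and 7.45, 7.41 and 7.28 without. The groups overlapped, and the log2FC of -0.08 (SE 0.070, FDR = 0.305 from limma) did not pass, with a 95% confidence interval from -0.24 to 0.07 and a range from -0.13 to -0.03 with single samples left out. Within a sample, Fcer2a exceeded Cr2 by 1.88, 1.82 and 1.98 on the log2 scale with CpG and by 0.90, 0.92 and 1.12 without. These differences are not adjusted for gene length and are a description only. The splice forms of Cr2 share 1 value in these data.

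Other genes were compared with this pair by the distance between their values after each gene was centred on its mean over the 6 samples. Nearest to Fcer2a were Lzic (distance 0.12 on the log2 scale, log2FC 0.75), Ccdc124 (0.12, log2FC 0.88) and Thoc6 (0.12, log2FC 0.85). Nearest to Cr2 were Ccdc9 (distance 0.06, log2FC -0.11), Ubr7 (0.10, log2FC -0.05) and Ubl5 (0.10, log2FC -0.13). None of these neighbours of Cr2 was called, but Ubl5 passed without CpG replicate 2 (-0.18, FDR = 0.0277 from limma). With single samples left out, Ccdc9 ranged from -0.16 to -0.05, Ubr7 from -0.10 to -0.01 and Ubl5 from -0.18 to -0.08.

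Among surface proteins of marginal zone cells, CD1d presents lipids to natural killer T cells. Cd1d1 had 0.75, 0.16 and -0.47 log2 CPM with CpG and 2.89, 2.53 and 2.66 without. Every stimulated sample lay below every unstimulated sample, and the stimulated samples differed more among themselves. The mean fell from 2.69 ± 0.18 to 0.15 ± 0.61 (SD, n = 3 each), about 114 and 19.2 reads, a log2FC of -2.55 (SE 0.290, FDR = 2.12e-05 from limma). The neighbouring copy Cd1d2 shares sequence with Cd1d1, as 14.2% of the stretches of 75 bases in Cd1d1 also occur in Cd1d2, and how reads were divided between them was not tested. Cd1d2 had means of -3.46 with CpG and -2.13 without, below the level of 10 reads, and was not tested.

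Cd9 encodes a tetraspanin, a protein that crosses the membrane and gathers partners within it. Its values were 5.42, 6.14 and 5.46 log2 CPM with CpG and 5.42, 5.76 and 5.61 without. Replicate 2 was the highest sample of each group, and the groups overlapped. The log2FC of 0.08 (SE 0.175, FDR = 0.687 from limma) did not pass and changed sign without CpG replicate 2 (-0.15) or unstimulated replicate 1 (-0.01). Erythroid genes also peaked in replicate 2 of both groups, and their part in the values of Cd9 was not tested.

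Fcrl1, Fcrl5 and Fcrla, which encode Fc receptor-like proteins, changed in different directions. Fcrl1 encodes a surface receptor of B cells with activating motifs in its tail. It had 9.16, 9.37 and 9.33 log2 CPM with CpG and 8.00, 7.91 and 8.01 without. The groups were far apart, with a log2FC of 1.31 (SE 0.070, FDR = 1.21e-07 from limma), or 2.48-fold. Fcrl5, which is found mainly on marginal zone and B-1 cells and can dampen signals of the B cell receptor, had 5.42, 5.35 and 5.16 with CpG and 2.95, 2.87 and 2.95 without. The log2FC of 2.39 (SE 0.098, FDR = 3.61e-08 from limma) is 5.23-fold, and 95.5% of tested genes had a smaller log2FC by size.

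Fcrla encodes a relative that stays inside the cell, in the endoplasmic reticulum, where it binds immunoglobulin. It had 5.47, 5.70 and 5.90 log2 CPM with CpG and 8.42, 8.43 and 8.63 without. All stimulated samples lay below all unstimulated samples. Its log2FC was -2.80 (SE 0.106, FDR = 2.62e-08 from limma), a normalised level 6.98-fold higher without CpG. Of tested genes, 97.6% had a smaller log2FC by size.

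Cd38 encodes an ectoenzyme that uses NAD and is carried by most mouse B cells. It had 6.03, 5.90 and 5.89 log2 CPM with CpG and 6.41, 6.38 and 6.55 without. The groups did not overlap, but the difference was small, with a log2FC of -0.50 (SE 0.073, FDR = 0.000122 from limma). It did not pass when tested against a log2FC of 0.5 with treat (FDR = 0.834).

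Cd5 encodes an inhibitory receptor found on T cells and B-1a cells. Its values were -0.37, 0.11 and 0.12 log2 CPM with CpG and 0.46, 0.23 and 0.13 without, or about 16.7 and 21.0 reads at the group means. The groups were separated by less than 0.01, between CpG replicate 3 (0.122) and unstimulated replicate 3 (0.129). The log2FC of -0.32 (SE 0.285, FDR = 0.334 from limma) did not pass, and at this depth its 95% confidence interval ran from -0.96 to 0.32. With single samples left out it ranged from -0.40 to -0.15.

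Notch2 encodes the receptor that marginal zone cells need. It had 8.52, 8.38 and 8.61 log2 CPM with CpG and 9.35, 9.34 and 9.46 without. Each stimulated sample lay below each unstimulated sample. The log2FC was -0.88 (SE 0.073, FDR = 2.18e-06 from limma), a normalised level 1.84-fold higher without CpG.

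Levels of different genes were compared per kilobase of exon, on the log2 scale. In unstimulated cells Fcrla was highest at 7.69, followed by Fcer2a at 6.73, Fcrl1 at 6.14 and Notch2 at 5.95. Cd9 (4.56), Cd38 (4.49) and Cr2 (4.36) came next, and neighbours among these overlapped. Cd1d1 stood at 1.33, Fcrl5 at 1.12 and Cd5 at -2.03. With CpG, Fcer2a (7.56) and Fcrl1 (7.46) were highest and overlapped, and Fcrla had moved to 4.89, between Notch2 (5.07) and Cd9 (4.64), overlapping both. Cr2 (4.28), Cd38 (3.98), Fcrl5 (3.51), Cd1d1 (-1.21) and Cd5 (-2.35) followed without overlap.

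On chromosome 3 of GRCm38, Cd1d1 (86995834 to 86999441, minus strand), Fcrl1 (87376387 to 87402934, plus strand) and Fcrl5 (87435773 to 87500678, plus strand) lie close together. Cd1d1 and Fcrl1 are 377 kb apart, and Fcrl1 and Fcrl5 are 32.8 kb apart. Within this region and 100 kb on each side, 6 of 9 genes were tested, of which 3 were higher and 3 lower. These counts include Cd1d1, Fcrl1 and Fcrl5 themselves, so they do not describe the neighbours alone. Over all tested genes, 37.6% were higher and 36.7% lower. Dclk2 (-1.29) and Etv3 (-0.36) were lower. Cd5l, beside Fcrl1, passed the filter on low values through the CpG group alone, with means of -0.44 with CpG and -2.38 without. Its log2FC of 1.94 (SE 0.546) was 0.52 on the log2(CPM + 1) scale, and its call was lost with no filter (FDR = 0.052 from limma) and in the samples of numbers 1 and 3 (0.0595). These neighbours were picked by position after values were seen.

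Fcrla lies on the minus strand of chromosome 1, from 170917576 to 170927583. Of 14 genes within 300 kb on each side, Fcrla itself included, 9 were tested, with 4 higher, 2 lower and 3 not called. Fcrla is 1 of the 2 lower genes. The shares higher and lower over all tested genes were 37.6% and 36.7%. Fcgr2b, the inhibitory receptor for IgG which lies at higher coordinates beside Fcrla, was also lower at a log2FC of -1.50 (SE 0.064), while Fcrlb, at lower coordinates, did not pass (-0.47, SE 0.341). Dusp12 (1.23) and Atf6 (0.91), next in line, were higher. Cr2, on the minus strand of chromosome 1 from 195136811 to 195176716, has the related gene Cr1l beside it, which passed at -0.35 (SE 0.107, FDR = 0.0133 from limma). The groups of Cr1l overlapped, and its call was lost without unstimulated replicate 2 (FDR = 0.0541) or 3 (0.0539), in the 4 female samples (0.122) and with no filter (0.126).

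**Figure D2:**
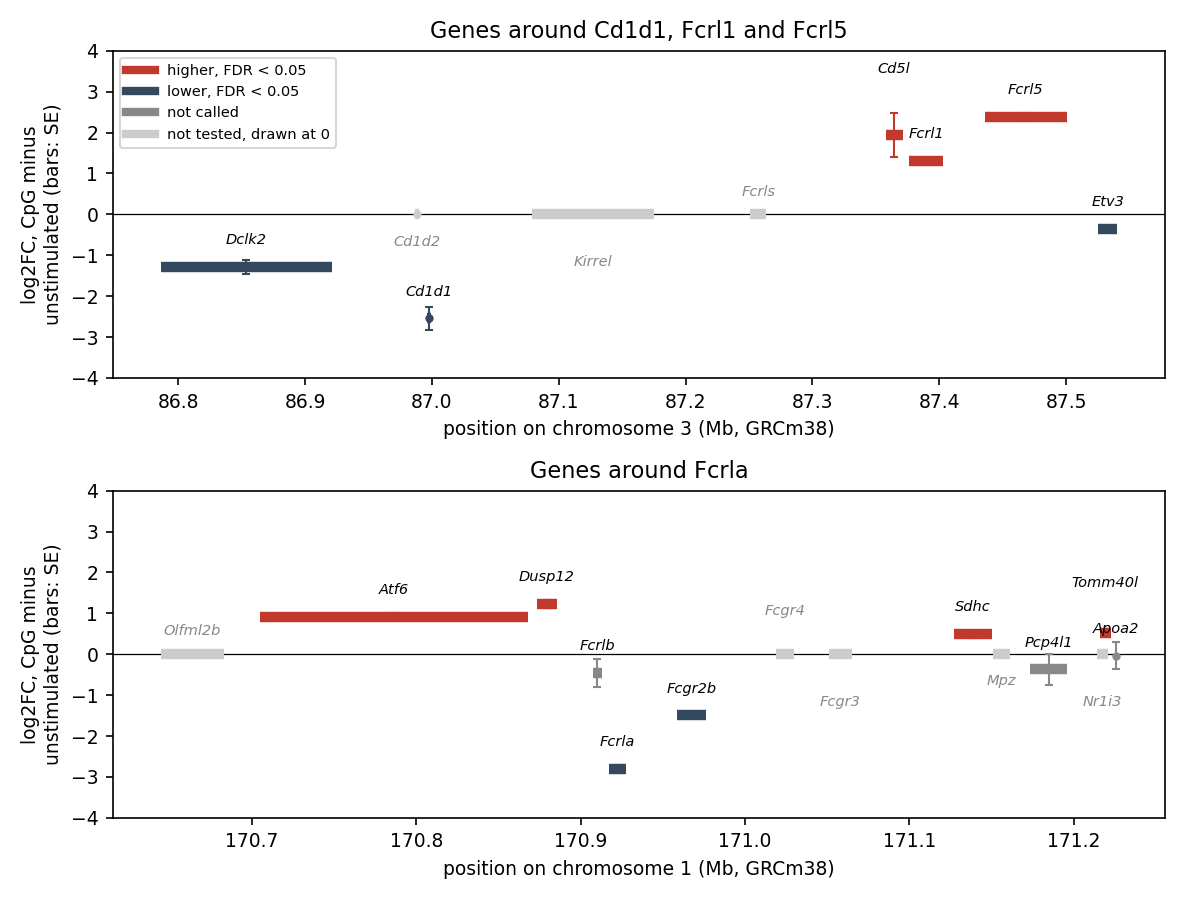
Log2FC, CpG minus unstimulated (vertical axis, bars for the SE), of genes at their positions on chromosome 3 around Cd1d1, Fcrl1 and Fcrl5 (upper panel) and on chromosome 1 around Fcrla (lower panel), in Mb of GRCm38. Genes not tested are drawn at 0 in pale grey. Fcrl1 (1.31) and Fcrl5 (2.39) were higher and Cd1d1 (-2.55) lower, and Fcrla (-2.80) and Fcgr2b (-1.50) were lower beside the higher Dusp12 (1.23).

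The remaining genes lie on other chromosomes or far from these. Notch2 is on chromosome 3 from 98013527 to 98150361 (plus strand), Cd38 on chromosome 5 from 43868553 to 43912375 (plus strand) and Cd9 on chromosome 6 from 125460266 to 125494791 (minus strand). Fcer2a is on chromosome 8 from 3681737 to 3694175 and Cd5 on chromosome 19 from 10717116 to 10739002, both on the minus strand. Exons of Cd9 share 218 bases with Gm26728 on the opposite strand, and exons of Notch2 share 541 bases with Gm42820. Neither of those genes has a deposited value. The paper names a library kit that keeps the strand, but whether the counting used it was not given, so that reads of Cd9 and Gm26728 cannot be told apart.

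Notch receptors are cut by ADAM10 after ligand binding and then by gamma-secretase, and the freed part joins RBPJ and a Mastermind-like protein on DNA. Of 27 tested Notch pathway genes, 18 were lower, 2 higher and 7 not called, with a median log2FC of -0.53. Over all tested genes 37.6% were higher and 36.7% lower, with a median of 0.003, and the same shares apply beside each list named here. Without Notch2 itself, 17 of 26 were lower. Notch3, Notch4, Dll4, Jag1 and Hey1 were not tested, because of low values.

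Among the receptors, Notch1 did not pass (-0.27, FDR = 0.0592 from limma), but did with the replicate number as a block (FDR = 0.00623), without CpG replicate 1 (0.0405) and without unstimulated replicate 3 (0.0397). It ranged from -0.34 to -0.16 with single samples left out. Of the ligands, Jag2 was lower from a low level (-1.74, SE 0.332), and Dll1 did not pass (0.07). Jag2 had about 10.2 reads in the CpG mean and was at -0.90 on the log2(CPM + 1) scale. Fringe enzymes, which add sugars to Notch and tune its choice of ligand, differed, as Lfng was lower (-0.87), Mfng higher (0.35) and Rfng not called (-0.02).

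The protease gene Adam10, whose product also sheds CD23 from the cell, fell from 8.52 ± 0.08 to 7.18 ± 0.02 log2 CPM (SD, n = 3 each), a log2FC of -1.33 (SE 0.060). Fcer2a was higher in the same samples. Taok3, a kinase known to bring ADAM10 to the surface of future marginal zone cells, was lower too (-1.11), and Adam17 was lower at -0.30, a call lost with no filter and in the 4 female samples. Genes of gamma-secretase that were lower include Psen2 (-0.58), Ncstn (-0.58) and Psenen (-0.41), and Aph1a did not pass (-0.04). Aph1b, counted among the 18 lower genes, passed the filter through the unstimulated group alone and had about 3.55 reads in the CpG mean, so that the size of its log2FC of -2.75 (-1.06 on the log2(CPM + 1) scale) is uncertain.

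In the nucleus, Rbpj (-0.32), Maml1 (-0.97) and Maml3 (-0.53, a call lost with no filter) were lower and Maml2 was higher (1.13), whereas the corepressor Spen did not pass (0.01). Of the regulators, Numb (-0.97) and Itch (-0.84), which limit Notch, were lower. Among targets, Dtx1, which is high in marginal zone cells, was lower (-1.35, SE 0.070), as was Nrarp (-1.76, SE 0.330), at about 11.3 reads in the CpG mean and -0.94 on the log2(CPM + 1) scale. Hes1 (-0.35, FDR = 0.178 from limma) and Hes5 (-0.31, FDR = 0.196) did not pass, although Hes1 did with the replicate number as a block (FDR = 0.0212) and Hes5 did without unstimulated replicate 2 (0.0405) and in numbers 1 and 3 (0.0352). With single samples left out, Hes1 ranged from -0.52 to -0.10 and Hes5 from -0.51 to -0.17.

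**Figure D3:**
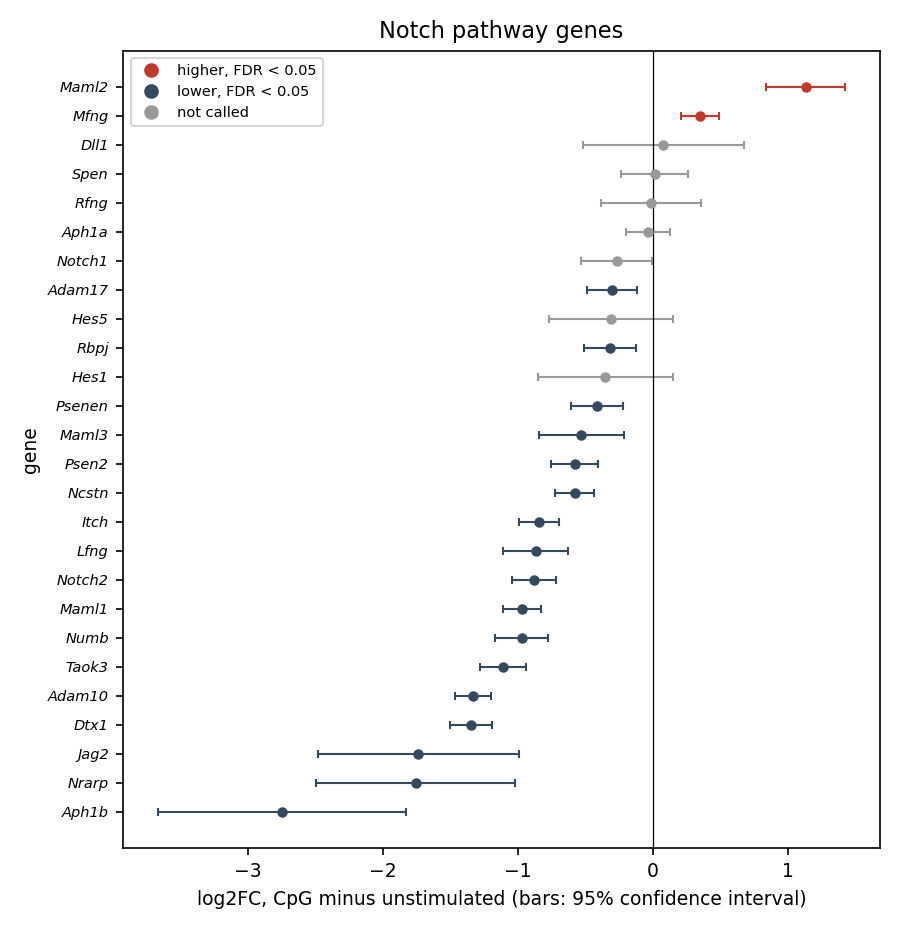
Log2FC, CpG minus unstimulated (horizontal axis), with 95% confidence intervals for 26 of the 27 tested Notch pathway genes (vertical axis), coloured by the call at an FDR under 0.05. Most points lie below 0, with Notch2 at -0.88, and Maml2 (1.13) and Mfng (0.35) are the higher genes.

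Of 9 tested follicular-associated genes, 5 were higher, 3 lower and 1 not called (median log2FC 0.45). Besides Fcer2a these include the homing receptors Ccr7 (0.62), Cxcr5 (0.45) and Gpr183 (0.72), which were higher, and the integrin gene Itgb7 (-2.90), which was lower. Of 13 tested marginal zone-associated genes, 2 were higher, 8 lower and 3 not called (median -0.77). Without genes among the 10 subset markers, 1 of 9 marginal zone-associated genes was higher, 7 lower and 1 not called. Of 8 follicular-associated genes left in that way, 4 were higher, 3 lower and 1 not called. S1pr1, a receptor that holds cells in the marginal zone, was lower (-3.71), as were Mzb1 (-2.23), Ptk2b (-1.46) and Cd24a (-0.51, a call lost with no filter and in the 4 female samples), while Plxnd1 was higher (4.00). The difference between these lists was not tested.

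Relatives of the 10 genes were counted next. In the Fc receptor and Fcrl family, which includes Fcer2a, Fcrl1, Fcrl5 and Fcrla, 4 of 10 tested genes were higher, 4 lower and 2 not called. The median log2FC of that family was -0.40. Without genes among the 10 subset markers, 1 of 6 was higher, 3 lower and 2 not called. Beyond the genes above, Faim3, the IgM receptor gene now named Fcmr, was lower (-1.03). Fcgrt was lower too, but passed the filter through the unstimulated group alone and had about 4.37 reads in the CpG mean, so that its log2FC of -2.63 was -1.07 on the log2(CPM + 1) scale. Fcer1g, at about 6.14 reads in the unstimulated mean, was higher at 1.51 (0.59 on the log2(CPM + 1) scale), a call lost with no filter, in the 4 female samples and without CpG replicate 2 or 3 or unstimulated replicate 1 or 3 (highest FDR among these 0.157 from limma).

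The product of Cr2 works with CD81 on the surface. Cd81 rose with a log2FC of 2.38 (SE 0.117), whereas Cd55, which protects cells from complement, was lower (-1.74).

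Of 11 tested genes of CD1d lipid presentation, Cd1d1 included, 2 were higher, 7 lower and 2 not called (median log2FC -0.74). The lipid transfer proteins encoded by Psap (-1.43), Gm2a (-1.59) and Npc2 (-1.11) were lower along with Cd1d1. Mttp, which encodes another on this list, was higher (0.72, FDR = 0.0254 from limma), at about 24.0 reads in the unstimulated mean. B2m, whose product pairs with CD1d, was also lower (-0.39), Slamf1 was higher (3.85) and Ctss did not pass (0.08).

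Of 14 tested tetraspanins including Cd9, 4 were higher, 5 lower and 5 not called (median log2FC -0.07), near the 37.6% and 36.7% of all tested genes. Cd81 (2.38), Cd82 (1.21) and Tspan33 (1.88, a call lost with no filter) were higher. Tspan13 (-2.52), Tspan14 (-2.20), Tspan17 (-2.18, about 10.6 reads in the CpG mean) and Cd37 (-0.47) were lower, and Cd53 did not pass (-0.09), except without CpG replicate 2 (-0.16, FDR = 0.0458 from limma).

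Of 10 tested genes for NAD and nucleotide enzymes, Cd38 included, 2 were higher, 6 lower and 2 not called (median log2FC -0.50). Bst1, the closest relative of Cd38, is counted among the 6 but passed the filter through the unstimulated group alone and was under 3 reads in the CpG mean, so the size of its log2FC of -3.50 (SE 0.468; -1.003 on the log2(CPM + 1) scale) is uncertain. Entpd1 (-1.54), Parp1 (-0.95) and Sirt1 (-0.78) were lower. Nmnat1 was higher (1.15), and Nampt did not pass (0.04). Parp14 passed at 0.18 (FDR = 0.0334 from limma), a call lost without CpG replicate 1 or 3 or unstimulated replicate 1 or 2, in the 4 female samples, with no filter and without a trend, with a highest FDR among these of 0.146.

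Of 9 tested genes associated with CD5 and B-1 cells, 5 were higher, 3 lower and 1, Cd5, not called (median log2FC 0.83). Tnfrsf13b (2.98), Zbtb32 (2.07), Plscr1 (1.70) and Ctla4 (1.57) were higher and Bhlhe41 was lower (-1.37). Of 24 fate regulators, which include Notch2 and Rbpj of the Notch pathway, 6 were higher, 17 lower and 1 not called (median log2FC -0.56). Without Notch2, 6 of 23 were higher, 16 lower and 1 not called. Nfkb1 (1.71), Irf8 (1.65) and Irf4 (0.97) were higher and Ets1 (-2.56), Btk (-1.66), Ikzf3 (-1.63) and Nr4a1 (-0.39, a call lost with no filter) were lower.

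Markers of other cells were read beside these results. All 6 B cell markers were above 10 reads, led by Cd79b at a mean of 9.48 log2 CPM, and 2 were higher and 4 lower with CpG. Of 7 T cell markers 0 reached a mean of 10 reads, with Cd3e, Cd4, Cd8a and Thy1 under 3 reads in all samples, and the most abundant, Cd28, was at -1.14. NK cell markers, led by Klrb1c at -2.39, also gave 0 of 4, although Klrb1c itself was at -0.84, 0.23 and 0.23 with CpG and under 3 reads without.

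Of 5 myeloid markers 4 reached 10 reads on average, and Emr1 (now Adgre1), the most abundant, was at 2.75. Their summed level was 9.98, 15.3 and 14.4 CPM in CpG replicates 1 to 3 and 7.16, 13.6 and 13.8 CPM in unstimulated replicates. Emr1 was higher with CpG (log2FC 0.83, a call lost with no filter and in numbers 1 and 3), and 2 other markers were lower. Those 2, Csf1r and Cd14, passed the filter on low values through the unstimulated group alone. On the log2(CPM + 1) scale they were at -0.48 and -0.79, and both calls were lost with no filter (FDR = 0.0949 and 0.0541 from limma), that of Csf1r also without unstimulated replicate 3 (0.0754) and in the 4 female samples (0.0705). For platelets, 4 of 5 markers reached 10 reads on average, led by Itga2b at 2.10, with sums from 6.23 to 7.05 CPM with CpG and from 7.07 to 10.3 CPM without. Of the 4, Itga2b was not called, and 2 were lower at low levels, Pf4 (-1.41, or -0.70 on the log2(CPM + 1) scale, a call lost with no filter) and Ppbp (-0.83). The call of Ppbp was lost without CpG replicate 1 or 3 or unstimulated replicate 1 or 2, in the 4 female samples, in numbers 1 and 3 and with no filter (highest FDR among these 0.183 from limma). Dendritic cell markers (2 of 4, led by Zbtb46 at 5.25, with Clec9a under 3 reads in all samples) summed to 97.1, 105 and 89.7 CPM with CpG and 37.7, 30.4 and 34.4 CPM without, and the 2 tested, Flt3 and Zbtb46, were higher. Markers of pDC (3 of 4, led by Tcf4 at 7.28) summed to 134, 130 and 127 CPM with CpG and 261, 252 and 252 CPM without. That sum follows Tcf4 (log2FC -1.24), and of the 3 tested markers 2 were lower and 1, Bst2 (0.92), was higher. Siglech was not tested, with means of -2.66 with CpG and -3.63 without. Whether these sums reflect other cells or B cells was not tested. Follicular dendritic cell markers (2 of 4, led by Mfge8 at 2.19, with Madcam1 under 3 reads in all samples) summed to 4.09, 4.08 and 4.55 CPM with CpG and 9.96, 9.88 and 9.58 CPM without. Mfge8 was lower (-1.38), and Clu was lower at -0.77, a call lost without CpG replicate 1 or 2 or unstimulated replicate 1 or 2, in numbers 1 and 3 and with no filter (highest FDR among these 0.207 from limma).

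Erythroid markers were the most uneven. All 5 passed 10 reads, led by Beta-s at 9.80. They summed to 397, 4980 and 627 CPM in CpG replicates 1 to 3 and to 420, 3913 and 520 CPM in unstimulated replicates 1 to 3, so that replicate 2 stood out in both groups. No erythroid marker was called, apart from Beta-s with the replicate number as a block (log2FC 0.21, FDR = 0.0245 from limma).

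Markers of other B cell stages were also read, beside the 37.6% higher and 36.7% lower of all tested genes. Of 4 transitional B cell markers 3 were tested and all 3 were lower, with Cd93 the most abundant (5.40), at a log2FC of -2.54 (SE 0.131). Their sum was 20.3, 28.0 and 24.7 CPM with CpG and 126, 115 and 146 CPM without. Plasma cell markers, led by Xbp1 (6.33), had 2 lower of 3 tested, germinal center markers, led by Fas (2.71), had 1 higher of 3, and age-associated B cell markers, led by Tbx21 (2.14), had 1 higher of 2, a call lost with no filter. The part of any of these markers in the changes of the 10 genes was not tested.

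Promoter windows from RefSeq (GRCm38.p6), 250 bases before to 50 after the start of a transcript, were found for 9 of the 10 genes, Cd1d1 being the exception, in 11 windows. They were read on both strands for TGGGAA, the core letters that RBPJ binds, for GGANNTTCC, part of the kappa B consensus, and for CG. TGGGAA was in 6 of the 11 windows, belonging to 5 genes (Cr2, Cd38, Cd9, Fcer2a and Cd5), and in 25.6% of all 32851 windows. In Fcer2a it was in the windows of inner starts and not in that of the outermost start. GGANNTTCC was in 0 of the 11 windows and in 4.26% of all windows. The Notch2 window held 41 CG, the Cd9 window 18 and the Cr2 window 14, against a median of 7 over all windows, and the other 8 held 1 to 4.

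The stretches around TGGGAA in Cr2 and Cd5 lie outside any annotated gene and are shown to let the match be seen beside genes that were not called. Capitals mark the match, as written on the strand of the gene, where TTCCCA is TGGGAA on the opposite strand. The Cr2 stretch is at chr1:195176922-195176951 and the Cd5 stretch at chr19:10739172-10739201, both on the minus strand. A match is a description of letters and not a bound site.
Cr2: gatgtaggggggTGGGAAcgagaaagttaa
Cd5: ctctctctggagTTCCCAgcctctctctgc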

How the data were processed

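RNA-seq values of 6 samples were used, 3 CpG and 3 unstimulated. According to the submitters' processing notes, reads were checked with FastQC 0.11.7, trimmed with Trim Galore 0.6.5, aligned to mm10 with STAR 2.6.1a and counted with featureCounts of Subread 2.0.1. The authors normalised by quantiles with voom, and what they deposited is log2 CPM and not counts. The commonest low value, -5.15, was taken as that of a gene without reads, which implies a library of 17.8 M counted reads. In some sample 4426 genes lay below that level, so it is not a strict floor. Reads quoted here, and the filter on low values, follow from that level and are approximate. They cover counting error only. Quantile normalisation hides the depth of each sample and any change in total RNA per cell, and sums were 992384 to 1012396 CPM.

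Groups, numbers and sex were taken from the labels. Genes above the value of 10 reads in at least 3 samples were tested with limma 3.58.1 in R 4.3.3 (lmFit, eBayes with a trend), with Benjamini-Hochberg adjustment. The procedure was first tested on simulated data. Gene positions and exon lengths are from GENCODE M21 (GRCm38, the build mm10). Older symbols were matched, and Ighd, Ighm and Ly6g were not matched.

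The members and lists were chosen with earlier results of these data known. Named are the 10 genes; of each of 10 lists up to 5 called genes with the largest log2FC by size and up to 3 with the highest mean; all Notch pathway genes; the 3 genes nearest in pattern to Cr2 and Fcer2a; and the most abundant marker of each cell type. Other named genes were chosen after their values were seen. Some genes and the results that need them are not reported here.

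Deviations from group means had correlations of 0.435, 0.224 and 0.300 within numbers 1, 2 and 3 and of -0.281 to 0.0279 across numbers, so the numbers were read as pairing the samples. The fit reported has no block, and the fit with one was run as an alternative. The deposited values also carry a shift by number that can give this. Alternatives covered the filter, the replicate block, each sample left out, the 4 female samples, log2(CPM + 1), the trend, centring and treat. A fit to the 4 samples of numbers 1 and 3, and an interaction of CpG with sex, were added after seeing the data.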

Additional observations from a re-analysis of the deposited data

Results flagged for a closer look

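In 8 of the named genes the female replicates 1 and 2 differed between CpG and unstimulated cells in one direction and the male replicate 3 in the other. Cr2 differed by -0.25 and -0.06 in the female replicates and by 0.06 in the male replicate, an interaction (male minus female log2FC) of 0.21. Cd9 differed by 0.01 and 0.39 and by -0.15, an interaction of -0.35. The interaction was 0.65 for Dll1, -0.15 for Ctss, 0.26 for Ccdc9, 0.15 for Ubr7, 0.51 for Itga2b and 1.19 for Clu. Each had an FDR of 1 in limma's interaction test, and 0 genes passed over all tested genes, with 84 at an unadjusted p under 0.05. The male group is 1 replicate number, so sex and that replicate cannot be told apart.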

How the results depend on the processing

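Of 150 values of the 10 genes under 15 alternatives, 146 kept their direction and call. Cd38 no longer passed against a log2FC of 0.5 with treat (-0.50, FDR = 0.834 in limma, where the alternatives ran from 1.16e-05 to 0.834), which asks for a larger change. Cd9, not called, ranged from -0.15 to 0.21 with single samples left out and was -0.072 in the 4 samples of numbers 1 and 3, a choice made after seeing the data. With treat, 2315 tested genes were higher and 2186 lower, against 4227 and 4123. For other named genes, calls lost with treat are not given beside the result. Among them are Ccr7 (0.62, FDR = 0.212 from treat) and Cxcr5 (0.45).

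With the replicate block, 4390 tested genes were higher and 4287 lower, Fcer2a was at 0.83 and Cr2 at -0.08, and no call of the 10 genes changed. Among the other named genes the block changed the calls of Notch1 (-0.27), Hes1 (-0.35) and Beta-s (0.21, FDR = 0.0245 in limma).

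Other reversals were in genes not called, and the cause was not tested. With single samples left out, Dll1 ranged from -0.10 to 0.202, Rfng from -0.10 to 0.14, Aph1a from -0.08 to 0.015, Spen from -0.066 to 0.152, Nampt from -0.015 to 0.106 and Beta-s from -0.92 to 1.25. In the 4 female samples Dll1 was -0.14 and Spen -0.023. In numbers 1 and 3, Rfng was 0.14, Ctss -0.005 and Nampt -0.004. Of 1608 values of 108 other named genes, 72 in 30 genes lost their call and 9 in 6 genes gained it. Low counts limit Cd1d1 and Cd5, and log2(CPM + 1) gave -1.80 for Cd1d1. On that scale, which shrinks changes of low genes, Aph1b was at -1.06, Nrarp at -0.94, Jag2 at -0.90, Fcgrt at -1.07, Fcer1g at 0.59, Tspan17 at -1.23, Bst1 at -1.003, Cd5l at 0.52, Csf1r at -0.48, Cd14 at -0.79, Pf4 at -0.70, Ppbp at -0.45 and Clu at -0.49.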
